A study of Mus musculus with 66 samples.

Results

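The genes of the cell division cycle and of mitosis were followed here in the cerebellum of C57BL/6 mice, from the weeks around weaning to old age and on 2 diets. Members were taken by symbol: those starting with Cdk, Cenp, Bub, Plk, Aurk, Anapc, Nek or E2f, those starting with Cdc, Mcm, Orc or Smc and a digit, and the cyclins (Ccn with a letter and a digit), without Cdkn1c. This gave 78 of the 4209 genes named on the filter, read by 92 of its 8448 probes. No member was left out for a low signal. The rule used symbols alone and no measured value.

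Each of 66 mice gave 1 sample: total RNA of the cerebellum was copied into radiolabelled cDNA and hybridized to a nylon filter of mouse cDNA clones. All were C57BL/6 animals of both sexes from 1 colony, with no transgene or mutation in the labels. Mice fed ad libitum (AL) were 17 to 21 days old (5 mice, 3 of them female), 33 to 44 days old (5 mice, 2 of them female), or adult, with 10 mice at about 6 months, 10 at 16 months and 9 at 24 months. Calorie-restricted (CR) adults, whose feed was cut in steps in early adulthood and then held at the reduced ration, numbered 9, 10 and 8 at the same ages. Every adult cohort held 5 females and 3 to 5 males. In the oldest cohort the CR males were all 673 days old and the AL males 719 to 743 days, so diet and age cannot be told apart in those males. The 10 juvenile mice had never been restricted. The question put to the data was whether transcripts of the division machinery differed between juvenile and adult cerebellum, between adult ages, or with CR.

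Cell division starts with the licensing of replication origins, for which Orc and Mcm proteins are loaded on DNA, and cyclin-dependent kinases with their cyclins then drive entry into S phase and mitosis. Centromere (Cenp) proteins and the Bub checkpoint hold chromosomes to the spindle until the anaphase-promoting complex releases them. In the mouse cerebellum, the precursors of granule neurons divide in the external granular layer during the first weeks after birth, and the layer is gone at about weaning; adult cerebellum holds few dividing cells, mostly glia. Many members also have duties outside division, such as the neuronal kinase Cdk5, the transcription kinases Cdk9 and Cdk12 with their cyclins Ccnt1 and Ccnt2, and the cytoskeletal GTPase Cdc42.

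Values were Z scores, in which every spot is placed within the distribution of its own array, with a mean of 0 and an SD of 1. A Z score says how bright a spot was on its array and does not measure abundance; differences are in Z units and cannot be turned into folds. Clones differ in length and labelling, so a gene is compared only with itself across mice. A gene name stands for the clone as annotated. The 9 members with more than 1 probe carried the mean of their probes. In whole tissue, fewer dividing cells and less transcript per cell cannot be told apart.

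Of the 66 arrays, 3 stood apart: correlated over the 8448 probes with each other array in turn, they had medians of 0.695, 0.701 and 0.820, against 0.921 or more for the other 63. They belonged to the second CR male and the second CR female of 16 months and to the second CR female of 24 months, and the first pair shared a block of dim spots at 1 position of the filter, where 4 members have a probe. Comparisons below used the 63 arrays, and results with all 66 are given where they differ. The lowest correlation among those kept belonged to the first male of 17 to 21 days, on which several results below rest. Of the markers of cerebellar cell types, the filter held 0 of 8 for granule neurons and 2 of 7 for Purkinje cells. The Purkinje cell markers had mean Z scores of -0.02 (Calb1, a calcium-binding protein) and 0.84 (Car8), so these arrays give little check of the tissue.

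Promoters were read from RefSeq (mouse build GRCm38.p6) as windows from 250 bases before to 50 bases after a transcription start; 69 of the 78 members had at least 1, with 85 windows in all. Letters of 3 motifs tied in textbooks to cell cycle transcription were searched on both strands, overlaps allowed. An E2F-like site (TTTCGCGC, TTTGGCGC, TTTCCCGC or TTTGCCGC) lay in 10 member windows (11.8%), against 4.53% of the windows of all genes named on the filter and 2.26% of all windows in the table. Over the windows of the members known to be made mainly in dividing cells, called the proliferation core below, the share was 26.3%. The CHR element (TTTGAA) was in 21.2% of member windows and 36.8% of core windows, against 11.8% for the filter and 17.9% for the table. The CCAAT box (CCAAT) was in 55.3% of member windows and 89.5% of core windows, against 36.9% and 37.4%. The core shares rest on only 19 windows of 17 genes, of which 5, 7 and 17 windows matched the 3 motifs in the order given. These are matches of letters and not tested binding sites.

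The windows of 3 members on which the comparisons below turn are shown, with every match in capitals (matches on the other strand appear as the reverse complement). Cdk5rap2 passed the test between juvenile and adult mice and held a CHR match alone, just after its start. Cenpl had the smallest p of the members from 6 to 24 months, for diet at 24 months and in their interaction, and held matches of all 3 motifs, 2 of them E2F-like. Orc1 led the comparison of 6 with 16 months and held an E2F-like match and CCAAT boxes in both orientations.
Cdk5rap2, chr4:70410386-70410685, - strand: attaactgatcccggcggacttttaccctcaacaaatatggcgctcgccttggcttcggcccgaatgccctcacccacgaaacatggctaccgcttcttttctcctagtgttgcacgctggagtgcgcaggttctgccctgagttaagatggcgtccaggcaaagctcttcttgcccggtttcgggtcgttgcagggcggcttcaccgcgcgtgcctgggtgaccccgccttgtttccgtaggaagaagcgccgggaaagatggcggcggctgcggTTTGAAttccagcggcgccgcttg
Cenpl, chr1:161070517-161070816, + strand: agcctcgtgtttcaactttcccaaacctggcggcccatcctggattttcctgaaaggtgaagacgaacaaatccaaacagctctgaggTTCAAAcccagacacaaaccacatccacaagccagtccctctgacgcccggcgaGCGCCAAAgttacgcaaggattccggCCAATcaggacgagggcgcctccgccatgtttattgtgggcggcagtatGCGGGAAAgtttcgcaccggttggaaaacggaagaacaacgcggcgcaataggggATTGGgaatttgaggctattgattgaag
Orc1, chr4:108579204-108579503, + strand: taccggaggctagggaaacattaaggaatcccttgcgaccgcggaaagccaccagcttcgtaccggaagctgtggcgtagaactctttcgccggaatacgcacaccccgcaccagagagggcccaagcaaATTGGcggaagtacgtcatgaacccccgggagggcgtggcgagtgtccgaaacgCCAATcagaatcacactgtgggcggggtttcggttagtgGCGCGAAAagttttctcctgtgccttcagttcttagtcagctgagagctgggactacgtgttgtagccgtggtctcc

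Members lay over the whole range of spot brightness: 37 of 78 (47.4%) had a mean Z score above 0, as did 48.7% of all 7782 features tested (named genes, and probes without a single symbol). Member means ran from -1.95 (Mcm8, a helicase of DNA repair) to 2.20 (Cdkn3, a phosphatase that acts on Cdk2). The spread between mice was small, with a median SD of 0.157 over the members against 0.166 over all features. The class of origin licensing and firing was formed by symbol (Mcm, Orc and Cdc7), so Mcm8 falls in it too. Among its 11 genes, 5 had a mean above 0, among them Mcm4 (2.13) and Mcm9 (1.52). Mcm2 (0.02), Mcm6 (0.14), Mcm7 (-0.43), Orc1 (-1.72), Orc6 (-0.95) and the firing kinase Cdc7 (-1.22) were near or below the middle of the array. Of the 4 cyclins of the cycle itself, the G1 cyclins Ccnd2 (0.71) and Ccnd3 (0.06) were above 0 and the S phase and mitotic cyclins Ccna2 (-0.39) and Ccnb2 (-0.73) below it. The 3 kinases of the cycle among the members were below 0: Cdk4 (-0.30), Cdk2 (-0.86) and Cdk6 (-1.24). Cdk1 was not among the members.

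The centromere and checkpoint group was the largest, with 16 members and 9 means above 0. Cenpb, which binds a satellite repeat (1.90), and the checkpoint protein Bub3 (1.08) were above 0, as were Cenpl (0.83), the centromeric histone Cenpa (0.81), Bub1b (0.20), Cenpi (0.14) and Bub1 (0.05). Cenpe, a kinetochore motor (-0.53), Cenph (-0.65), Cenpu (-0.68) and Cenpq (-0.83) lay below 0. In the anaphase-promoting complex 3 of 9 subunits were above 0, among them Cdc26 (0.69) and Anapc1 (0.19). The Smc proteins, the arms of cohesin, condensin and their relatives, had 3 of 5 above 0, among them Smc3 (1.10) and Smc6 (0.68), with the condensin subunit Smc4 at -0.02. The remaining classes held Plk5 (0.97) and Plk2 (-1.81) among polo-like kinases, Nek8 (1.13), E2f6 (0.26) and E2f4 (-0.33). They also held the inhibitor Cdkn2c (0.56), the splicing-linked cyclin Ccnl1 (0.86) and Ccnt1 (-0.09). Further members named Cdk included the centrosome protein Cdk5rap2 (0.91) and the mediator kinase Cdk19 (0.56). Further members named Cdc included Cdc42se1 (1.43) and the phosphatase Cdc14b (0.37). Of 50 genes listed for the proliferation core, 21 were among the members, and 9 of these had a mean above 0. Each of these levels belongs to a clone, or to the mean of a gene's clones where it had more than 1. They set no order between genes.

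The comparison of 29 adult AL mice with mice of 17 to 21 days gave the only called differences. Ccnd2 and Cdk5rap2 had higher Z scores in adults, and no member was lower at that threshold (limma, adjusted p under 0.05). These 2 of 78 members (2.56%) stand against 1.4% of all features called. At an unadjusted p under 0.05 there were 15 members (6 higher and 9 lower in adults), or 19.2% of the members against 20.2% of all features. The median difference of the members was -0.01 Z units and that of all features -0.002. The 95% interval of the median member was its difference ± 0.157, and for 55 of 78 members the whole interval lay within 0.3 Z units of 0.

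**Figure D1:**
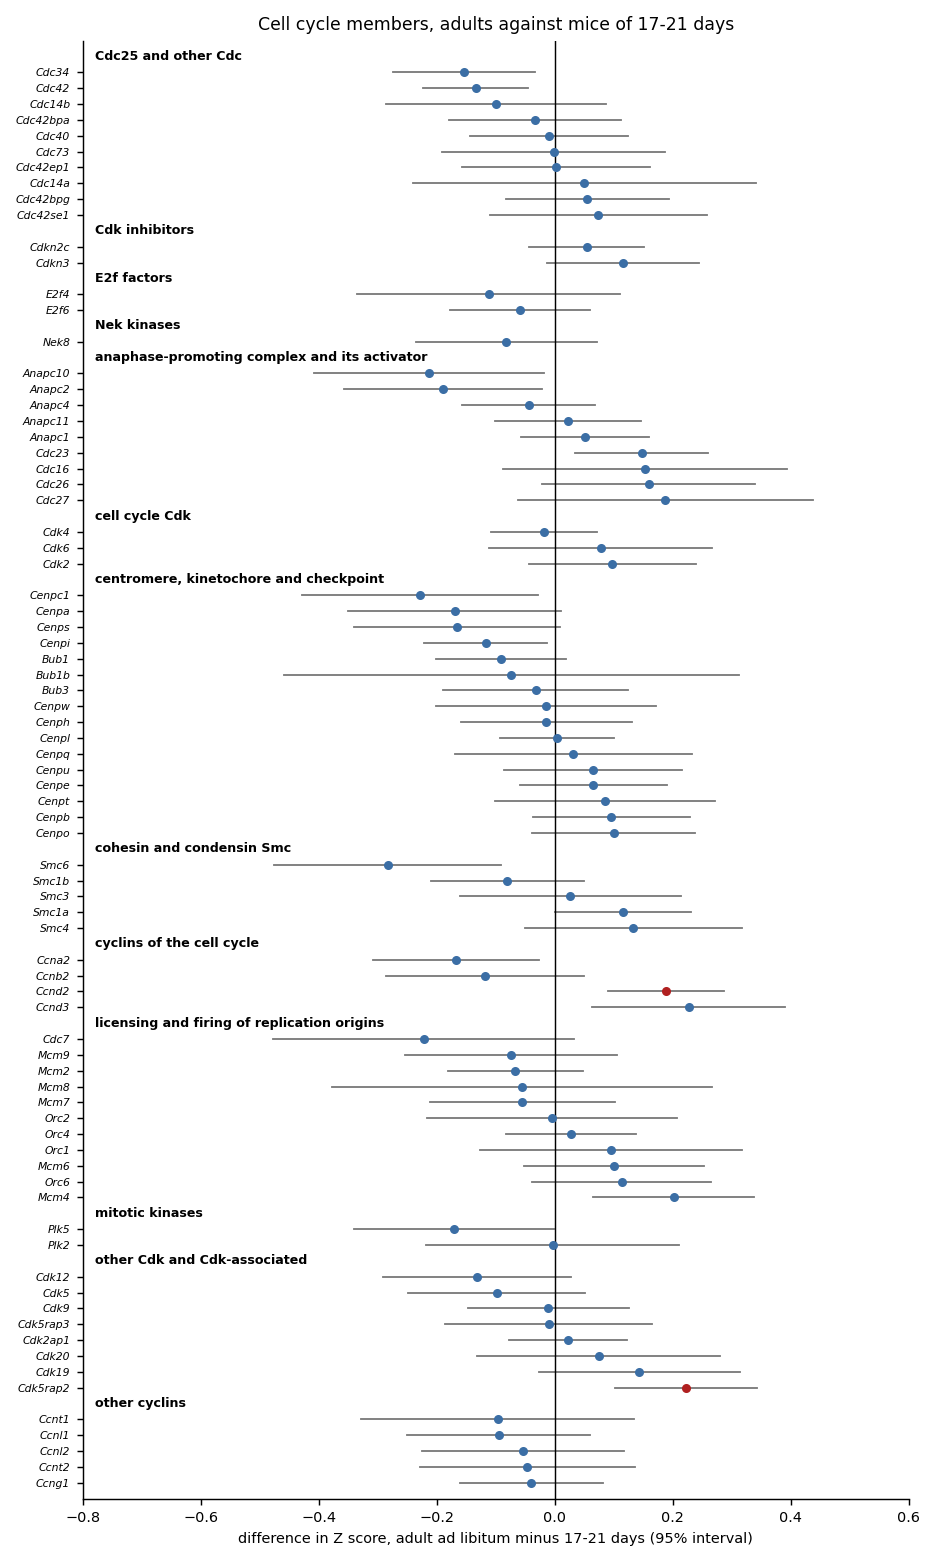
Difference in Z score between adult AL mice (29) and mice of 17 to 21 days (5) for each of the 78 members, grouped by role; points are limma estimates, lines are 95% intervals, and red points passed the adjusted threshold. Differences lay between -0.28 (Smc6) and 0.23 (Ccnd3), on both sides of 0 in most groups, and the red points are Ccnd2 and Cdk5rap2.

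Ccnd2, the D-type cyclin that granule cell precursors use to leave G1, had Z scores of 0.36, 0.51, 0.59, 0.65 and 0.67 in the 5 mice of 17 to 21 days. In the 5 mice of 33 to 44 days the lowest, median and highest were 0.64, 0.70 and 0.76, and in the 29 adults 0.53, 0.72 and 0.95. The pair of youngest males was below every adult, while the youngest females lay within the adult range. The difference was 0.188 (SE 0.0490, limma adjusted p = 0.0297). Within the 4 array sets (runs of array numbers) that held a mouse of 17 to 21 days it was 0.09, -0.02, 0.22 and 0.22, so 1 set had the other sign. Without the first male of 17 to 21 days, the lowest mouse, the difference was 0.150 with a limma adjusted p of 0.481.

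The filter carried 5 clones annotated as Ccnd2, and they did not read alike. Their mean Z scores over all mice were 0.02, 2.53, -1.02, 0.25 and 1.75. Adults minus mice of 17 to 21 days differed by 0.18, 0.13, 0.01, 0.18 and 0.45 in the same order. Tested singly, the fifth clone alone passed (limma adjusted p = 0.00271); its mean was 1.41 ± 0.504 (SD, n = 5) at 17 to 21 days and 1.78 ± 0.152 (SD, n = 29) in adults. The called difference of the gene was thus an average over clones of which 1 carried the most.

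**Figure D2:**
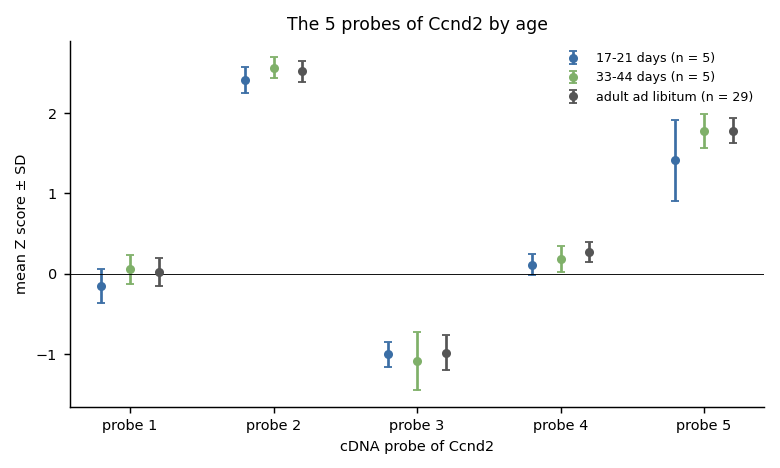
Mean Z score ± SD of each of the 5 cDNA probes of Ccnd2 at 17 to 21 days, 33 to 44 days and in adult AL mice. The probes sit at levels from -1.02 to 2.53; the fifth has a mean of 1.41 in the youngest mice, with an SD of 0.504, and 1.78 in adults.

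Cdk5rap2, a centrosome protein needed for the division of neural progenitors, had Z scores of 0.21, 0.78, 0.84, 0.85 and 0.88 in the youngest mice. At 33 to 44 days the lowest, median and highest were 0.71, 0.94 and 1.14, and in adults 0.70, 0.92 and 1.01. A single mouse, the first male, stood far below all others, and the other 4 lay among the adults. The difference was 0.222 (SE 0.0603, limma adjusted p = 0.0414), and without that male it was 0.05 (limma adjusted p = 0.7002). Within the 4 array sets it was 0.04, 0.10, 0.37 and 0.08, the largest being that of the set which held him.

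Both calls depended on single mice. Leaving out any of 4 of the 5 youngest mice ended the call of Ccnd2, with limma adjusted p between 0.0617 and 0.481. The call of Cdk5rap2 ended without any of 4 of the youngest mice (0.0765 to 0.7002) or any of 12 adults (0.05004 to 0.0530). Without the first male no member was called, 4 had an unadjusted p under 0.05, and a single feature of 7782 was called at all. Without the second male the count rose to 8, adding Ccnd3, Cdc23, Cdk19, Cenpt, Mcm4 and Smc1a, with the first male then standing alone for his sex and assumed to vary like the other groups. With all 66 arrays, neither member was called (limma adjusted p = 0.229 for Ccnd2 and 0.0565 for Cdk5rap2). That male had the lowest median correlation of the arrays kept, and the part of array quality in these differences was not tested. The fifth clone of Ccnd2 and the clone of Cdk5rap2 lie at the same position of the filter, position 16. Over that position the male had a mean Z score of -0.20. The other arrays kept ran from -0.23 to 0.03 there, with a median of -0.13. After correcting each filter position to a common level, 1 member was called between adults and mice of 17 to 21 days. The part of filter position in the calls was not tested further.

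Among the markers on the filter, none of a single cell type was called in the same comparison. The filter held 0 of 8 markers of oligodendrocytes and 0 of 5 of their precursors. It held 0 of 7 for endothelium and 0 of 3 for choroid plexus, so these cells were not followed. Both Purkinje cell markers had an unadjusted p under 0.05, Calb1 with a difference of -0.20 (limma adjusted p = 0.102) and Car8 with 0.31 (limma adjusted p = 0.0860). Their mean Z score ran from 0.10 to 0.59 at 17 to 21 days and from 0.27 to 0.60 in adults. Of 3 markers of astrocytes and Bergmann glia, Vim differed by 0.23 (limma adjusted p = 0.128), Sparcl1 by 0.13 and Slc1a3 by -0.12. Their mean ran from -0.17 to 0.46 at 17 to 21 days and from 0.10 to 0.52 in adults. Of 3 meningeal markers, Col1a2 differed by 0.16 (limma adjusted p = 0.168), Dcn by 0.08 and Col1a1 by -0.10. Their mean ran from -0.24 to -0.05 at 17 to 21 days and from -0.20 to 0.11 in adults. The groups overlapped for each list. The 3 microglial markers and both blood markers had none at that threshold, and the part of these cells in the called differences was not tested.

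**Figure D3:**
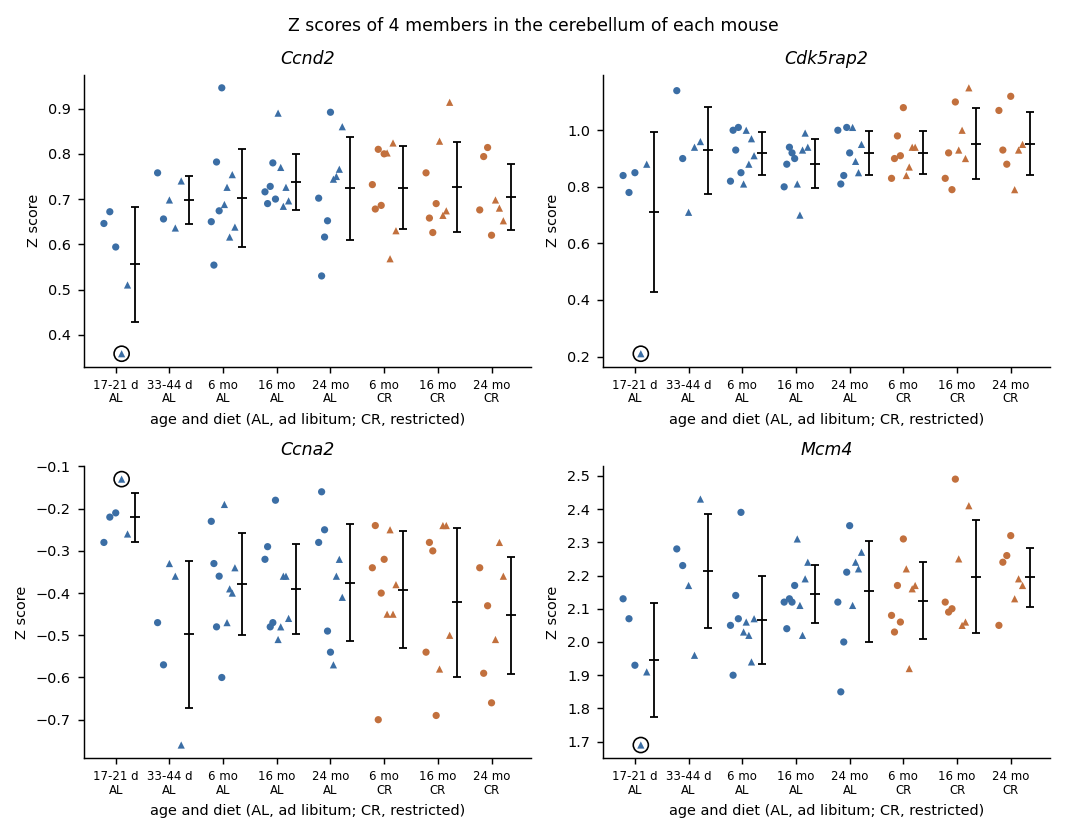
Z score of every mouse kept for Ccnd2, Cdk5rap2, Ccna2 and Mcm4 by age and diet; circles are females, triangles males, blue AL and orange CR, bars are mean ± SD, and a black ring marks the first male of 17 to 21 days. His values are 0.36 for Ccnd2 and 0.21 for Cdk5rap2, the lowest of all mice shown, and 1.69 for Mcm4.

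Other members of the division machinery went both ways between the youngest mice and adults, none past the adjusted threshold. Ccnd3, the second D-type cyclin on the filter, was 0.23 higher in adults (SE 0.0813, limma adjusted p = 0.158), and Mcm4 0.20 higher (SE 0.0680, limma adjusted p = 0.135). Smc6, of a DNA repair complex, was 0.28 lower (difference -0.28, SE 0.0957, limma adjusted p = 0.135). Ccna2 differed by -0.17 (limma adjusted p = 0.197), Cenpc1, which bridges centromeric DNA and the kinetochore, by -0.23 (0.203) and Anapc10 by -0.21 (0.219). Over the 21 core members, 11 differences were positive and 10 negative, with a median of 0.004. Over the 57 others, 24 were positive and 33 negative, with a median of -0.01.

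Between 17 to 21 and 33 to 44 days no member was called by limma, against 0.308% of all features. At an unadjusted p under 0.05 there were 11 members (14.1%), 5 higher and 6 lower at 33 to 44 days, against 13.4% of all features. The member with the smallest p was Mcm4, a subunit of the replicative helicase, with 1.69, 1.91, 1.93, 2.07 and 2.13 in the younger mice and 1.96, 2.17, 2.23, 2.28 and 2.43 in the older. The groups overlapped, and the difference was 0.299 (SE 0.0891, limma adjusted p = 0.129). Within array sets 1, 2 and 4, which held both ages, it was 0.04, -0.11 and 0.37. Cdk5rap2 differed by 0.261 (SE 0.0789, limma adjusted p = 0.131), again with the first male as its lowest mouse. Within the same sets Cdk5rap2 differed by -0.13, 0.16 and 0.26.

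Ccna2, the cyclin of S phase and G2, was the single member whose groups did not overlap. Its Z scores were -0.28, -0.26, -0.22, -0.21 and -0.13 at 17 to 21 days and -0.76, -0.57, -0.47, -0.36 and -0.33 at 33 to 44 days. All of the younger mice were above all of the older. Of all features, 0.218% lay apart in that direction and 0.206% in the other, in which no member did. The difference was -0.286 (SE 0.0922, limma adjusted p = 0.162) and did not pass. Within the 3 array sets that held both ages it was -0.05, -0.14 and -0.21. The 2 lowest older mice (-0.76 and -0.57) came from array set 5, which held no mouse of 17 to 21 days. For these 2 mice, age and array set cannot be told apart. Adults did not continue the step: their lowest, median and highest were -0.60, -0.36 and -0.16, which overlaps both juvenile groups.

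The criteria of the study were applied here in part: a Z-ratio of 1.5 or more in size, a mean Z score above 0 and an unadjusted p under 0.05. The p was that of the limma fit used here and not the study's own. The study also filtered genes by an analysis of variance over age, sex and diet, which was not run here. By these partial criteria, called those of the study throughout, 3 members differed between the juvenile ages: Mcm4, Cdk5rap2 and Smc6. They made up 3.85% of the members, against 4.1% of all features. The Z-ratio is the difference divided by the SD of such differences over all features. Smc6 had Z scores of 0.67, 0.90, 0.97, 1.01 and 1.09 at 17 to 21 days and 0.30, 0.33, 0.69, 0.71 and 1.06 at 33 to 44 days. The difference was -0.34 (limma adjusted p = 0.242). Within array sets 1, 2 and 4, which held both ages, it was 0.02, 0.05 and -0.60. In adults against mice of 17 to 21 days the criteria took Smc6 alone (1 of 78, against 4.7% of all features); Cdk5rap2, at a Z-ratio of 1.498, fell just short.

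Adult AL mice and mice of 33 to 44 days had no called member, against 0% of all features, and 3 members had an unadjusted p under 0.05 (3.85% against 2.08%). These were Cdc7, Cdc42bpa, a kinase of the actin cytoskeleton (difference -0.17, limma adjusted p = 1.00), and Ccng1, a cyclin induced by p53 (0.13, limma adjusted p = 1.00). Cdc7, the kinase that fires licensed origins, had Z scores from -1.25 to -1.12 in 4 of the 5 mice of 33 to 44 days and 0.79 in the second female. Adults ran from -1.61 to -1.04, with a median of -1.24. The difference of -0.540 (SE 0.127, limma adjusted p = 0.684) rested on that female: without her it was -0.03. Without the other female of that age she stood alone for her sex, and Cdc7 was then called, with a difference of -1.05 (limma adjusted p = 1.69e-10).

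Across adult ages on the AL diet no member was called in any of 3 comparisons, nor was any feature of the filter (0%), and 1 member in each had an unadjusted p under 0.05. From 6 to 16 months that member was Orc1, the largest subunit of the origin recognition complex. Its lowest, median and highest Z scores were -2.21, -1.87 and -1.58 at 6 months and -2.13, -1.60 and -1.23 at 16 months. The ranges overlapped over most of their width, and the difference was 0.216 (SE 0.100, limma adjusted p = 1.00). Anapc10, which helps the anaphase-promoting complex hold its substrate, differed by -0.17 and Cenpw by -0.16. Member shares at the unadjusted threshold were 1.28% in each comparison, against 1.34% of all features from 6 to 16 months, 3.92% from 16 to 24 months and 2.49% from 6 to 24 months.

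From 16 to 24 months the leading member was Cenpa, the histone that marks centromeres, which differed by -0.11 from 6 to 16 months and by 0.17 from 16 to 24 months (SE 0.0838, limma adjusted p = 1.00). Its lowest, median and highest were 0.28, 0.81 and 1.09 at 6 months, 0.34, 0.72 and 0.96 at 16 months, and 0.60, 0.91 and 1.06 at 24 months. The 3 ranges overlapped. Cenpa was also the single member taken by the criteria of the study in that comparison (0.771% of all features). Cenpc1 differed by 0.17 and Ccnt2, the cyclin of the elongation kinase, by 0.13. From 6 to 24 months Cenpl differed by 0.09 (SE 0.0447, limma adjusted p = 1.00), Cdc42ep1 by 0.14 and the anaphase-promoting complex subunit Cdc27 by 0.21. For the median member the interval of that comparison was ± 0.147, and for 70 of 78 members it lay within 0.3 Z units of 0.

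**Figure D4:**
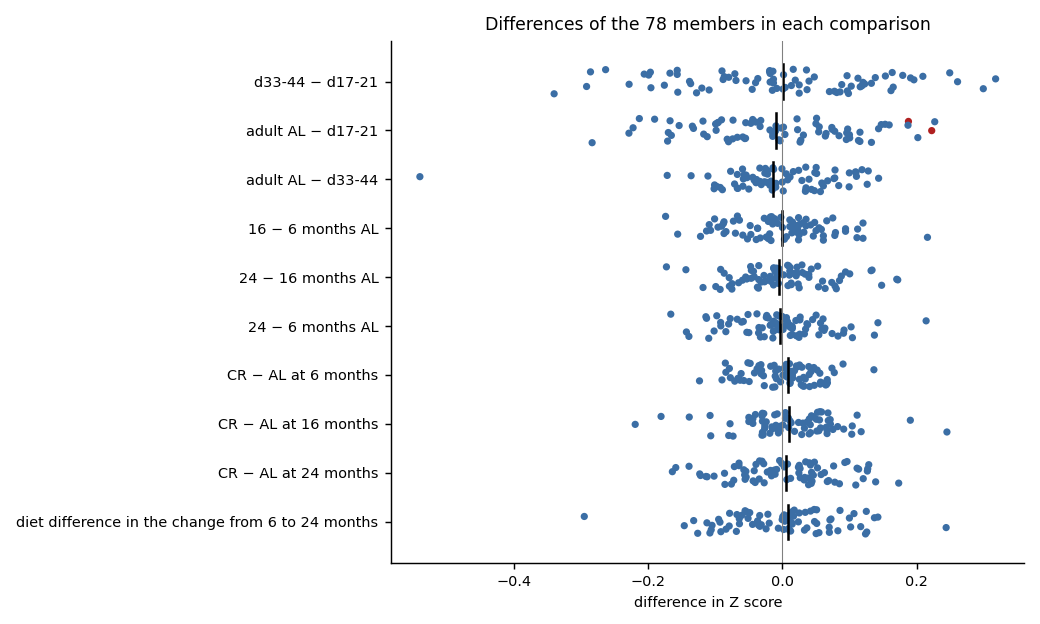
Differences in Z score of the 78 members in each of the 10 comparisons; each point is a member, black ticks are medians, and red points passed the adjusted threshold. Medians lie between -0.01 and 0.01 in every comparison, the median size of a difference is 0.100 between the juvenile ages, 0.0833 between adults and mice of 17 to 21 days and at most 0.0511 elsewhere, and the point at -0.54 is Cdc7.

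CR and AL mice were compared at each adult age, and no member was called at 6, 16 or 24 months, as no feature was (0%). At an unadjusted p under 0.05 there were 0 members at 6 months, 2 at 16 months and 2 at 24 months, against 0.655%, 2.13% and 2.25% of all features. Median differences of the members were 0.01 or less in size at all 3 ages. At 6 months the smallest p belonged to Anapc4, a scaffold of the anaphase-promoting complex, with a difference of 0.09 (SE 0.0525, limma adjusted p = 1.00), followed by Cenpw (-0.12) and Cdc27 (0.14).

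At 16 months the members with the smallest p were Cdc42bpg, Cdk5rap3 and Ccng1. Cdc42bpg, a cytoskeletal kinase, had lowest, median and highest Z scores of -1.28, -0.84 and -0.71 in AL mice and -0.95, -0.67 and -0.48 in CR mice. The ranges overlapped, and the difference was 0.19 (SE 0.0663, limma adjusted p = 1.00). Cdk5rap3, a binding partner of the activator of Cdk5, had -0.68, -0.37 and -0.22 in AL mice and -0.91, -0.66 and -0.33 in CR mice. Its difference was -0.22 (SE 0.0842, limma adjusted p = 1.00), and with all 66 arrays it was -0.12. With those arrays, 9 of 78 members had an unadjusted p under 0.05 at 16 months, against 8.64% of all features, and none was called. Ccng1 differed by -0.11.

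At 24 months the leading members were both proteins of the inner kinetochore. Cenpl had lowest, median and highest Z scores of 0.79, 0.86 and 1.02 in AL mice and 0.63, 0.80 and 0.87 in CR mice. The difference was -0.112 (SE 0.0493, limma adjusted p = 0.999), and among females alone, where the diets were matched in age, it was -0.12. Cenpi had -0.08, 0.12 and 0.26 in AL mice and -0.13, 0.02 and 0.17 in CR mice, a difference of -0.114 (SE 0.0533, limma adjusted p = 0.999) and of -0.14 among females. Its probe lies in the dim block, where the pair of 16-month CR mice left out read -2.64 and -2.62. Cdk9, the elongation kinase, differed by -0.12.

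**Figure D5:**
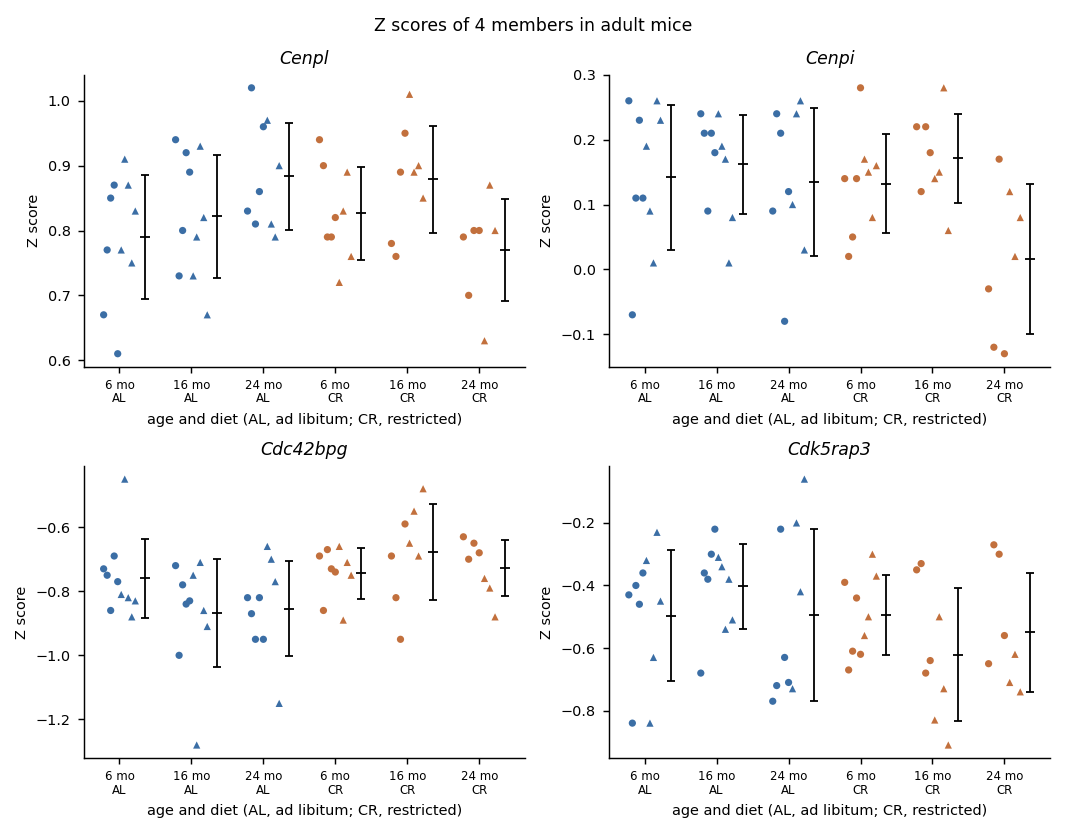
Z score of every adult mouse kept for Cenpl, Cenpi, Cdc42bpg and Cdk5rap3; circles are females, triangles males, blue AL and orange CR, and bars are mean ± SD. At 24 months Cenpl has a mean of 0.883 in AL and 0.770 in CR mice, and the ranges of the diets overlap for all 4 genes at every age.

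Whether the change from 6 to 24 months differed between diets was tested as an interaction. No member was called, as no feature was (0%), and 1 member had an unadjusted p under 0.05 (1.28% against 0.9% of all features). For that member, Cenpl, the change on the CR diet was lower than on the AL diet by a difference of -0.146 (SE 0.0666, limma adjusted p = 1.00). Its mean went from 0.790 to 0.883 on AL and from 0.827 to 0.770 on CR. The same diet contrast at 24 months enters both tests, so they share mice. Cenpw gave 0.24 and Cdc27 -0.30, the latter 0.009 among females alone. The interval of the median member was ± 0.219, and for 43 of 78 members it lay within 0.3 Z units of 0.

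The criteria of the study took no member in the other 7 comparisons. Of all features they took 0.643% between adults and mice of 33 to 44 days, 0.116% from 6 to 16 months and 0.475% from 6 to 24 months on the AL diet. For CR they took 0.0257%, 0.668% and 0.321% at 6, 16 and 24 months, and for the interaction 0.0643%.

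Of 111 further cell cycle genes outside the symbol rule, 49 were on the filter. Tfdp1, the partner with which E2f factors bind DNA, was the single one called between adults and mice of 17 to 21 days. It was 0.38 higher in adults (limma adjusted p = 0.0279), against 1.4% of all features called. The calls of Ccnd2 and Cdk5rap2 in that comparison depended on single mice, and this was not looked at for Tfdp1. At an unadjusted p under 0.05 there were 11 of the 49, against 20.2% of all features. Of these, 6 were higher, among them the replication proteins Rpa2 (0.29) and Rfc1 (0.18) and the spindle protein Nusap1 (0.20), and 5 lower, among them the DNA ligase Lig1 (-0.16) and the chromatin helicase Hells (-0.20). In each of the other 9 comparisons none of the 49 was called. Of 21 genes of granule cell precursors, 5 were on the filter and none was called or had an unadjusted p under 0.05 between juvenile and adult mice.

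Averaged over the 21 of 50 listed core genes that were members, the cohorts did not separate. Core genes not among the members were not followed. The mean Z score of the 21 genes had a lowest, median and highest value of -0.25, -0.19 and -0.16 at 17 to 21 days and -0.28, -0.17 and -0.09 at 33 to 44 days. In AL adults it had medians of -0.21, -0.18 and -0.17 at 6, 16 and 24 months. CR adults had -0.18, -0.17 and -0.19. The youngest mice, the one cohort near the end of granule cell birth, lay within the range of the 6-month AL mice, which ran from -0.29 to -0.13.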

How the data were processed

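Values were the Z scores the authors deposited, 1 column per array: phosphor images of the filters were read spot by spot, and every array was brought to mean 0 and SD 1. The sources used here do not say whether they rest on logarithms. Signal over background was not used here, depth is unknown, and the number of arrays limits the precision.

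Groups came from the sex, age and diet in the labels (16 groups of 2 to 5 mice). Names came from the annotation of the platform: 4875 probes had 1 symbol, 224 several and 3349 none, and probes of a gene were averaged. A mean per group was fitted to 63 arrays (limma 3.58.1, R 4.3.3; 47 residual degrees of freedom, moderated by eBayes), weighting the sexes equally, with two-sided tests adjusted by Benjamini-Hochberg over 7782 features and a threshold of 0.05. Arrays with a median correlation under 0.9 were left out. The code was tested on simulated data. Named were called members, otherwise the 3 smallest p of a comparison, the 2 highest means of each role, and the proliferation core; Smc6, Ccnd3, Cenpc1, Anapc10 in the youngest mice and the genes outside the rule were named after their values were seen. Members and lists were chosen with earlier results of these data known.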

Additional observations from a re-analysis of the deposited data

Results flagged for a closer look

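Single mice were looked for in the 22 members that led a comparison, over 8 cohorts (176 pairs of member and cohort). In 17 pairs 1 mouse lay apart from its cohort by Dixon's criterion at 95%, where chance gives about 1 in 20, or 8.8. These members were chosen for leading a comparison, which a single mouse can bring about, so the count is not set against chance. Over all 78 members it was 42 of 624 pairs (6.73%), and over all features 8.44%. The cause was not tested for any of them.

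The first male of 17 to 21 days read 0.21 for Cdk5rap2, against 0.78 to 0.88 in the other 4 mice, and 0.16 for Anapc10, against -0.29 to -0.18. The second male of that age read -1.82 for Ccnt2, against -1.53 to -1.43. Among mice of 33 to 44 days, the second female read 0.79 for Cdc7, against -1.25 to -1.12. The first female of that age read -0.55 for Cdc42bpg (others -0.78 to -0.72), 0.16 for Cdk9 (0.26 to 0.29) and 1.01 for Cenpl (0.76 to 0.80). The third male of that age read -0.54 for Cdc42ep1, an effector of Cdc42, against -1.44 to -1.24.

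Among AL mice of 6 months, the second male read -0.45 for Cdc42bpg (others -0.88 to -0.69) and -0.48 for Cenpw (-1.39 to -1.03), and the fifth female 2.39 for Mcm4 (1.90 to 2.14). Among AL mice of 16 months, the fifth female read -1.16 for Anapc10 (-0.64 to -0.16), the first male 0.89 for Ccnd2 (0.68 to 0.78) and the second male -1.28 for Cdc42bpg (-1 to -0.71). Among CR mice, the third female of 6 months read -0.70 for Ccna2 (-0.45 to -0.24), the fifth female of 16 months -0.10 for Cdc27 (-1.05 to -0.60) and the fifth female of 24 months -0.44 for Cdc42bpa (-0.26 to -0.15).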

How the results depend on the processing

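The count of members called between adults and mice of 17 to 21 days, 2 in the fit on 63 arrays, was also 2 with array sets as a blocking factor or quantile normalization. It was 0 with all 66 arrays, 0 with array weights, 1 after correcting each filter position to a common level, 0 with that correction on all 66 arrays (chosen after seeing the data), 1 by the criteria of the study, and 0 to 8 when each mouse was left out in turn. Between the juvenile ages, where it was 0, it was 1 after the position correction (Mcm4, limma adjusted p = 0.0461; 0.874% of all features called), 3 by the criteria of the study, and 0 to 7 with 1 mouse left out. Between adults and mice of 33 to 44 days it was 3 with array weights (Cdc7, Cdc42bpa and Ccng1; 0.912% of all features called) and 0 to 1 with 1 mouse left out. From 16 to 24 months it was 1 by the criteria of the study. Every other count stayed at 0, and the median differences moved by less than their spread. The cause of these changes was not tested. Of the differences of named members, 1 changed sign under the alternatives run, that of Cdc27 in the diet interaction (0.009 in females alone, chosen after seeing the data, against -0.295). No paired analysis was possible because the labels number no replicates within groups; the array sets, formed from array numbers, were blocked instead, as given above. Groups of 2 to 5 mice and the lack of any measure of signal over background limit what small differences these arrays can show.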
